A study of Homo sapiens with 8 samples.

Results

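REST, the RE1-silencing transcription factor, and 9 neuronal genes of the kind it is known to repress were followed in ovarian cancer cells given a histone deacetylase inhibitor. The 10 genes are REST, SYP, SYN1, SNAP25, STMN2, STMN3, CHGA, SCG2, L1CAM and TUBB3. They were taken by gene symbol from a table of 25369 named genes, and every one of the 10 was present in it. The comparison asks whether the neuronal genes are released when histone deacetylases are inhibited.

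Poly(A) RNA was sequenced from the ovarian cancer line UWB1.289, which carries a BRCA1 mutation and is called BRCA1-null, and from UWB1.289 transduced with wild-type BRCA1, called BRCA1+. Each line was kept for 24 h in 0.5 uM entinostat, an inhibitor of class I histone deacetylases (HDACi), or in its solvent DMSO (control). The 4 groups (BRCA1+ control, BRCA1+ entinostat, BRCA1-null control, BRCA1-null entinostat) held 2 libraries each, with total counts of 31900158 to 53549893 per library. Both lines descend from 1 tumour line, so a difference between them is a difference between a line and its transduced derivative, and no other patient's cells were compared.

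REST binds a DNA element called RE1 (repressor element 1), whose core has a left and a right box separated by a short gap. On chromatin it gathers corepressors, among them SIN3A and the RCOR (CoREST) proteins, which bring in HDAC1, HDAC2 and the histone demethylase KDM1A. In cells that are not neurons this keeps many neuronal genes low, including genes for synaptic vesicle proteins, secretory granule proteins, channels and parts of the axon. REST itself falls during neuronal differentiation, through degradation by the ubiquitin ligase subunit BTRC and through splicing by SRRM4.

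Letters that resemble the 2 RE1 boxes lay in or near 7 of the printed genes. The genome was searched on both strands for the left box CAGCACC, a gap of 2 bases and the right box GGACAGC. The sites with at most 1 differing letter among the 14 are shown because they are the letters that REST's zinc fingers are known to read. Each is given 5′ to 3′ in the orientation of the motif, with matching letters of the boxes in capitals and all other bases in lower case, on hg19 (GRCh37):
CHGA chr14:93389868-93389888 plus strand: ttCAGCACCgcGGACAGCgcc
SNAP25 chr20:10200320-10200340 plus strand: ttCAGCACCggGGACAGCggt
SNAP25 chr20:10200269-10200289 plus strand: ctCAGCACCctGGAtAGCaac
L1CAM chrX:153140957-153140977 minus strand: ttCAGCACCagGGACAGCgaa
TUBB3 chr16:89992912-89992932 plus strand: gtCAGCACCaaGGACAGCgcc
SYN1 chrX:47479469-47479489 minus strand: ttCAGCACCgcGGACAGtgcc
SYP chrX:49056581-49056601 minus strand: tcCAGCACCgtGGACAGagcc
STMN3 chr20:62284687-62284707 minus strand: gcCAGCACCatGGcCAGCacc

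CHGA, SNAP25, L1CAM and TUBB3 held a site with all 14 letters. With positions counted from 1 at the first base of the left box, the second SNAP25 site carried C13T, the SYN1 site C16T, the SYP site C16A and the STMN3 site A12C. By the GENCODE annotation the sites of CHGA, SNAP25, L1CAM, TUBB3 and SYP were intronic. The STMN3 site lay in a coding exon, and the SYN1 site lay upstream of the transcription start. Distances from the start, negative before it, were -224 bases for SYN1, 70 for SYP, 266 for STMN3, 432 for CHGA, 802 and 852 for SNAP25, 4504 for TUBB3 and 10660 for L1CAM. REST and SCG2 held no match with up to 2 differing letters within the gene and 5 kb on either side. Of 25077 genes placed on the genome, 2.07% had a match with at most 1 differing letter within 5 kb of the start, and 0.81% had one within 1 kb. A match is a description of the letters and does not show that REST is bound there.

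**Figure D1:**
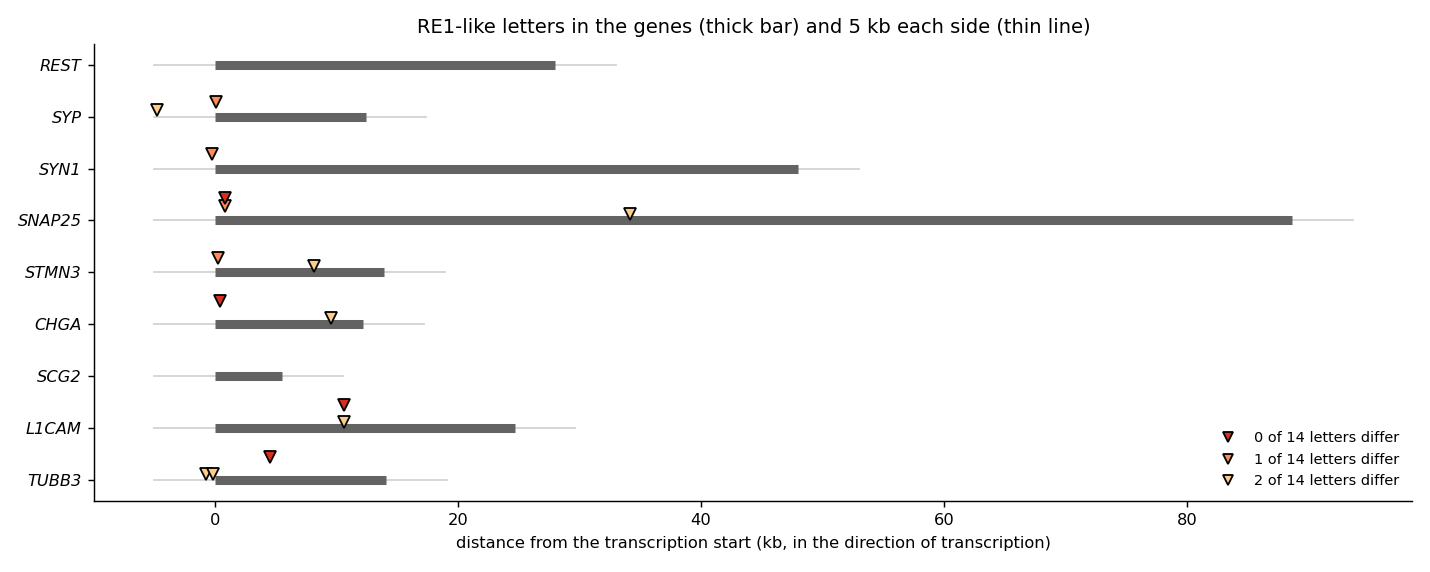
Positions of RE1-like letters in REST and 8 of the neuronal genes, as distance from the transcription start in kb along the direction of transcription. Thick bars are the genes, thin lines the 5 kb on either side, and triangles the matches, coloured by how many of 14 letters differ. STMN2 is not drawn. Sites with at most 1 differing letter lie within 1 kb of the start in SYP, SYN1, SNAP25, STMN3 and CHGA and farther inside TUBB3 and L1CAM.

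The library labels were checked first on BRCA1 itself. BRCA1 stood at 92.4 to 133 CPM (counts scaled to an equal library size with TMM factors) in the BRCA1+ libraries and at 17.6 to 22.4 CPM in the BRCA1-null libraries. Replicates correlated at 0.9915 to 0.9923 (Pearson's r of log2 CPM across genes, which are not independent replicates). Of 8 ovarian epithelial markers, 7 exceeded 1 CPM in every library. Of 8 markers of the neuronal and neuroendocrine lineage, 1 did (DLX2). The labels do not say that replicates came from separate cultures, so p-values measure the spread between these libraries.

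Levels of the 10 genes differed widely. Per gene length, the mean over the 8 libraries was 46.8 RPKM for L1CAM, 35.0 for TUBB3, 33.6 for STMN3 and 5.16 for REST. It was 0.879 RPKM for SNAP25, 0.323 for CHGA, 0.29 for SYP and 0.224 for SYN1. The order of TUBB3 and STMN3 depended on the line, since STMN3 averaged 15.2 RPKM in BRCA1+ control and 52.9 in BRCA1-null control cells, where TUBB3 averaged 32.0 and 41.7. CHGA, SYP and SYN1 could not be ranked beyond their spread, as their group means of 0.268 to 0.359, 0.217 to 0.347 and 0.101 to 0.352 RPKM overlapped. SCG2 and STMN2 were lowest, at 0.031 and 0.007 RPKM.

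REST was expressed in every library at nearly one level. It had 38.3 and 39.7 CPM under DMSO and 37.1 and 35.7 under entinostat in the BRCA1+ line, and 39.6 and 40.4 under DMSO and 39.9 and 37.2 under entinostat in the BRCA1-null line. The highest library was 1.13 times the lowest. Both BRCA1+ entinostat libraries lay below both controls of that line, while the BRCA1-null groups overlapped. Averaged over the lines, entinostat changed REST by a log2 fold change of -0.08 ± 0.049 (SE; 95% interval -0.19 to 0.03; adjusted p = 0.288, edgeR quasi-likelihood test with Benjamini-Hochberg adjustment over 17714 genes, 4 libraries against 4). Between the lines the difference was 0.04 ± 0.0685 in control (adjusted p = 0.712) and 0.09 ± 0.0701 in entinostat (adjusted p = 0.374). REST protein was not measured.

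Of the 10 genes, 8 had enough counts to be tested, and 3 of them were higher in entinostat when both lines were averaged: SYN1, L1CAM and SNAP25. Of all tested genes 26.1% were called in this comparison, and 15.2% were called higher. In BRCA1+ cells alone 2 of the 8 were called, SYN1 and L1CAM, both higher, against 14.1% of all genes called and 8.13% called higher. In BRCA1-null cells 3 of the 8 were called, with SYN1 and L1CAM higher and TUBB3 lower, against 10.8% of all genes called and 7.57% called higher. The median log2 fold change of the 8 averaged over the lines was 0.04, and that of all tested genes was 0.00. A bulk library cannot tell a larger share of expressing cells from more RNA per cell.

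SYN1 encodes synapsin I, which tethers synaptic vesicles to actin. Its counts were 15 and 27 under DMSO and 28 and 64 under entinostat in the BRCA1+ line, and 17 and 15 under DMSO and 44 and 39 under entinostat in the BRCA1-null line. In CPM these were 0.375 and 0.588, 0.883 and 1.38, 0.374 and 0.276, and 0.938 and 0.934. All 4 entinostat libraries lay above all 4 controls.

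SYN1 rose 2.64-fold when the lines were averaged (log2 fold change 1.40 ± 0.257, adjusted p = 0.00464). The BRCA1+ change was 1.26 ± 0.348 (adjusted p = 0.0427), the BRCA1-null change was 1.54 ± 0.379 (adjusted p = 0.0354), and the test of their difference gave 0.28 ± 0.535 (adjusted p = 0.984). The averaged call held under all 16 alternatives in which SYN1 was tested, but the calls in single lines did not. A filter of at least 50 counts in every library of a group left SYN1 untested. In BRCA1+ cells the omission of any 1 of the 8 libraries moved the adjusted p to between 0.0503 and 0.329, with log2 fold changes of 0.85 to 1.64. In BRCA1-null cells the omission of any 1 of its own 4 libraries moved it to between 0.0714 and 0.176, with log2 fold changes of 1.32 to 1.73.

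SYN1 shares its locus with ARAF and with TIMP1, which lies inside SYN1 on the opposite strand and had 1519 to 3061 counts. Whether the counting used strand is not stated. TIMP1 changed by a log2 fold change of 0.05 ± 0.0508 with entinostat (adjusted p = 0.477), and ARAF fell by 0.24 ± 0.0548 (adjusted p = 0.0119). None of 15 tested genes within 500 kb of SYN1 was called higher in entinostat, beside 15.2% of all tested genes. No neighbour changed by as much as SYN1.

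L1CAM is a cell adhesion molecule of growing axons and is also made by many ovarian carcinomas. It had 203 and 188 CPM under DMSO and 305 and 284 under entinostat in the BRCA1+ line, and 210 and 192 under DMSO and 300 and 277 under entinostat in the BRCA1-null line. The lowest entinostat library exceeded the highest control library. L1CAM rose 1.47-fold on average (log2 fold change 0.55 ± 0.0502, adjusted p = 1.66e-04).

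By line the rise of L1CAM was 0.59 ± 0.0712 with restored BRCA1 (adjusted p = 0.00166) and 0.52 ± 0.0709 without it (adjusted p = 0.00386), with a difference of -0.07 ± 0.1 between them (adjusted p = 0.975; 95% interval -0.29 to 0.16). Each of these 3 calls held under every alternative run, apart from an added threshold of 1 on the absolute log2 fold change. L1CAM did not differ detectably between the lines in control (0.04 ± 0.0711, adjusted p = 0.681). In the same comparison 13 of 30 tested genes within 500 kb were called higher in BRCA1-null cells and 0 lower. Of all tested genes 21.1% were called higher and 21% lower.

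SNAP25 encodes a SNARE protein of synaptic vesicle fusion. It had 69 and 74 counts under DMSO and 98 and 130 under entinostat in the BRCA1+ line, and 78 and 51 under DMSO and 87 and 64 under entinostat in the BRCA1-null line. In CPM these were 1.73 and 1.61, 3.09 and 2.80, 1.71 and 0.938, and 1.86 and 1.53. The BRCA1+ entinostat libraries were the 2 highest of the 8, whereas the BRCA1-null groups overlapped.

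Averaged over the lines SNAP25 rose by 0.60 ± 0.195 (1.52-fold, adjusted p = 0.0491). This call was lost in 10 of 17 alternatives, 7 of them the omission of a single library. Without any 1 library other than BRCA1-null control replicate 1 the adjusted p lay between 0.0651 and 0.16. Its change was 0.81 ± 0.26 in BRCA1+ cells (adjusted p = 0.0696), while BRCA1-null cells gave 0.39 ± 0.29 (adjusted p = 0.428), with a difference of -0.42 ± 0.392 (adjusted p = 0.971). In entinostat SNAP25 was lower in BRCA1-null than in BRCA1+ cells, with a log2 fold change of -0.78 ± 0.256 (adjusted p = 0.0376). Without BRCA1+ control replicate 2 or any of the 4 entinostat libraries that adjusted p was 0.053 to 0.152.

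TUBB3 encodes the neuronal class III beta-tubulin, which many carcinomas also make. It had 67.2 and 61.1 CPM under DMSO and 68.2 and 70.1 under entinostat in the BRCA1+ line, and 88.1 and 79.1 under DMSO and 68.7 and 58.4 under entinostat in the BRCA1-null line. The BRCA1-null control libraries were the 2 highest, and the other 3 groups lay together. With entinostat TUBB3 fell in BRCA1-null cells by 0.39 ± 0.0912 on the log2 scale (adjusted p = 0.0284), and in BRCA1+ cells the change was 0.11 ± 0.0928 (adjusted p = 0.49).

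The call of TUBB3 in BRCA1-null cells was lost without BRCA1-null control replicate 1 (adjusted p = 0.0944) or 2 (0.0578) and without BRCA1-null entinostat replicate 2 (0.127). The difference of the 2 effects was -0.50 ± 0.13, with an unadjusted p = 0.00365 from edgeR and an adjusted p = 0.967. No gene of the table passed the test of that difference (0% called, 827 genes at an unadjusted p under 0.05, 11 called by DESeq2 and 18 by the edgeR likelihood ratio test), and thus none of the 8 did.

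STMN3, a stathmin that binds tubulin dimers, differed between the lines. It had 44.7 and 38.4 CPM under DMSO and 40.7 and 38.2 under entinostat in the BRCA1+ line, and 150 and 139 under DMSO and 151 and 132 under entinostat in the BRCA1-null line. No BRCA1-null library overlapped a BRCA1+ library. STMN3 was 3.48-fold higher in BRCA1-null cells in control (log2 fold change 1.80 ± 0.094, adjusted p = 2.29e-06) and 3.59-fold higher in entinostat (1.84 ± 0.0952, adjusted p = 2.38e-06). With entinostat it changed by -0.05 ± 0.0659 on average (95% interval -0.20 to 0.10, adjusted p = 0.599).

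Between the lines in control, 2 of the 8 tested genes were called, STMN3 and TUBB3, both higher in BRCA1-null cells, against 42.2% of all genes. In entinostat 2 were called, STMN3 higher and SNAP25 lower, against 39.4%. TUBB3 was 1.30-fold higher in BRCA1-null control cells (0.38 ± 0.0913, adjusted p = 0.00865), a call lost without BRCA1+ control replicate 2 (0.31, adjusted p = 0.0659). Genes near STMN3 were also higher in the BRCA1-null line. Of 39 tested genes within 500 kb, 23 were called higher in control and 0 lower, beside 21.1% and 21% of all tested genes. Their median log2 fold change was 0.46 against 0.01 over all genes, and 4 had a larger change than STMN3. The part of the neighbourhood in the STMN3 difference was not tested.

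CHGA and SYP were detected at low counts and passed in no comparison. CHGA, the granule protein chromogranin A, had 31 and 31 counts under DMSO and 21 and 28 under entinostat in the BRCA1+ line, and 40 and 32 under DMSO and 30 and 19 under entinostat in the BRCA1-null line. Its averaged log2 fold change was -0.29 ± 0.239 (95% interval -0.83 to 0.25, adjusted p = 0.411). The entinostat libraries of the BRCA1+ line lay below its controls in CPM, and those of the BRCA1-null line overlapped them.

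SYP, the vesicle membrane protein synaptophysin, had 30 and 14 counts under DMSO and 21 and 28 under entinostat in the BRCA1+ line, and 45 and 38 under DMSO and 43 and 30 under entinostat in the BRCA1-null line. Its averaged change was 0.14 ± 0.291 (95% interval -0.52 to 0.79, adjusted p = 0.773), and treated and control libraries overlapped in both lines. The antisense genes SYP-AS1 and SNAP25-AS1 had 0 to 3 and 3 to 13 counts. At these counts a 1.47-fold change like that of L1CAM lies within the intervals of SYP.

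STMN2 and SCG2 did not pass the filter on low counts. STMN2, a stathmin of growing axons, had 0 counts in all 4 control libraries, 0 and 3 in BRCA1+ entinostat and 3 and 0 in BRCA1-null entinostat cells. SCG2, the granule protein secretogranin II, had 2 and 2 counts under DMSO and 2 and 0 under entinostat in the BRCA1+ line, and 2 and 8 under DMSO and 10 and 3 under entinostat in the BRCA1-null line. A count of 0 allows up to 3 counts, which is 0.0552 to 0.0946 CPM in these libraries (counting error only), so both STMN2 groups lie at or under the floor and no fold is given. With no filter neither gene was called in any comparison.

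**Figure D2:**
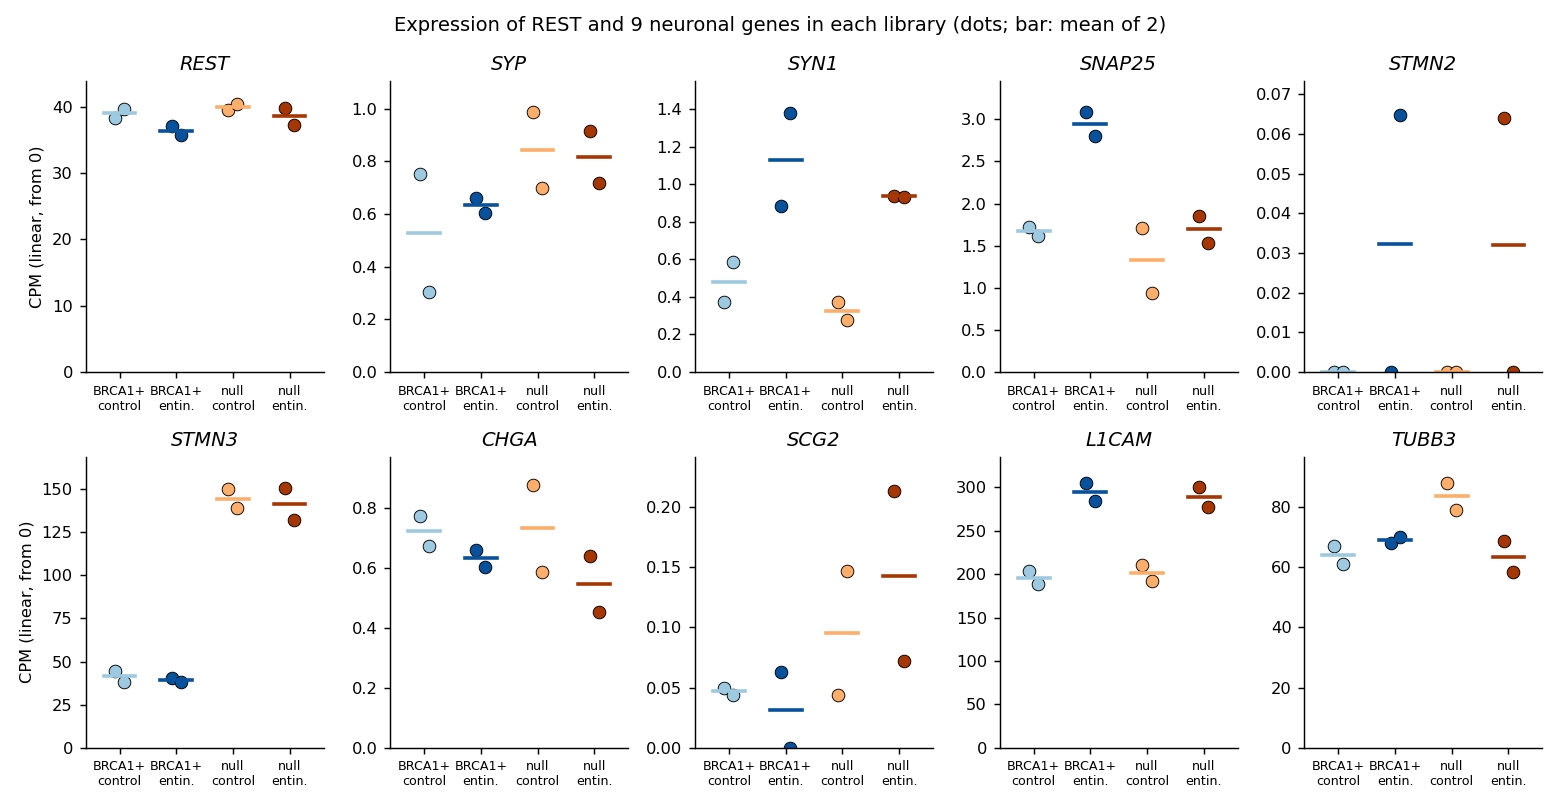
CPM of the 10 genes in each of the 8 libraries, each panel on its own linear axis from 0. Dots are libraries, bars the mean of 2, and colours the 4 groups. L1CAM and SYN1 are higher in all 4 entinostat libraries than in all 4 controls, STMN3 is higher in all 4 BRCA1-null libraries, and REST stays between 35.7 and 40.4 CPM.

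**Figure D3:**
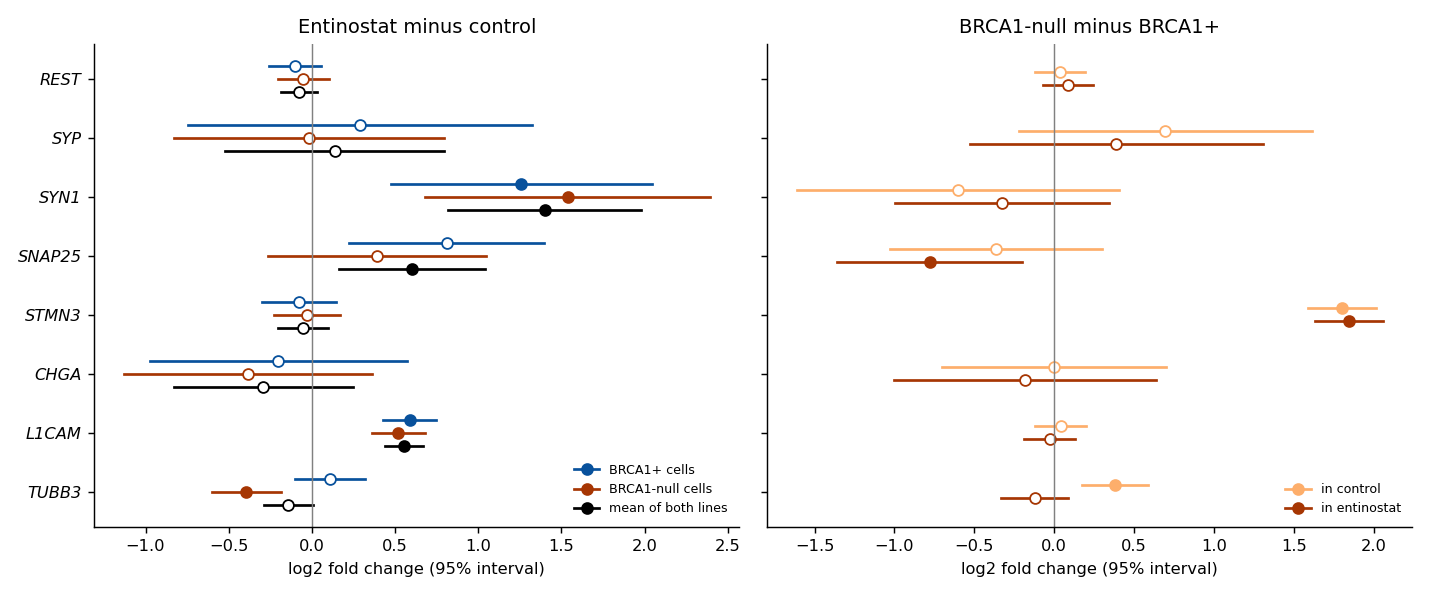
Log2 fold changes of the 8 tested genes with 95% intervals, for entinostat minus control (left) and BRCA1-null minus BRCA1+ (right). Filled symbols have an adjusted p under 0.05 (edgeR quasi-likelihood test). L1CAM and SYN1 lie to the right of 0 in both lines, and TUBB3 lies below 0 in BRCA1-null cells.

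Paralogs of the neuronal genes, drawn up as a list of widely expressed ones, were compared over 10 genes, 9 of them tested. With entinostat averaged over the lines 4 rose (44.4%) and 1 fell (11.1%), beside 15.2% higher and 10.9% lower of all tested genes. TUBB4A and TUBB2B encode brain-enriched beta-tubulins. TUBB4A rose by 2.97 ± 0.435 (adjusted p = 0.00158) from 2 to 12 counts in the control libraries to 15 to 92 counts. It entered the test only through its entinostat libraries, so its place among the called genes is not independent of that rise. Of 8 paralogs that passed the filter on low counts in the 4 control libraries alone, 3 rose (37.5%). That filter was chosen after the data were seen, and 15.2% of all genes rose under it. TUBB2B rose by 1.54 ± 0.119 (adjusted p = 8.71e-05). TUBB4B, an abundant beta-tubulin whose locus overlaps FAM166A on the opposite strand, fell by 0.38 ± 0.0443 (adjusted p = 5.58e-04), and TUBB6 rose by 0.17 ± 0.0407 (adjusted p = 0.0157).

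TUBB2A changed by -0.05 ± 0.116 (adjusted p = 0.799), and TUBB had 0 counts throughout, since its entry lies on an alternative haplotype contig. Reads of one tubulin gene can align to another, and how the counting treated such reads is not stated. SYPL1, the general relative of SYP, rose by 0.15 ± 0.0468 (adjusted p = 0.0433). SNAP23 and SNAP29, which serve membrane fusion outside neurons, had changes of 0.05 ± 0.044 and -0.04 ± 0.0514 (adjusted p = 0.489 and 0.617). The proliferation-linked stathmin STMN1 changed by -0.01 ± 0.0382 (adjusted p = 0.845).

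Beyond the 10 genes, 72 other neuronal genes were taken as 5 lists by function, and 47 of them were tested. Whether REST acts on each of the 72 was not tested. MAPT, among the untested genes, had 0 counts throughout. Its entry lies on an alternative haplotype contig, so this does not show that MAPT is not expressed. With entinostat averaged over the lines 19 rose and 2 fell. That is 40.4% higher with a median log2 fold change of 0.57, beside 15.2% and 0.00 over all tested genes, and the count lay between 16 and 23 in the alternatives without the fold threshold and was 11 with it. When genes had to pass the filter on low counts in the 4 control libraries alone, a choice made after the data were seen, 17 of 44 rose (38.6%), and the share of all genes was 15.2%. The 3 genes lost that way were CHRM4, SCN2A and SCG3. The lists were compiled from general knowledge with earlier results of these data known, so their counts are descriptions. By level, 10 of the 15 list genes with a mean log2 CPM from 1 to 5 rose (66.7%), beside 18.6% of all genes in that range. Below that range 6 of 25 list genes rose (24%), beside 12.7% of all. These 25 include CHRM4, SCN2A and SCG3, and CHRM4 and SCN2A are among the 6, so this share is not independent of their rise. Above the range 3 of 7 rose (42.9%), beside 13.3% of all, and both list genes that fell were among these 7.

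Of 16 tested synaptic vesicle and exocytosis genes, 8 rose and 0 fell. SYNGR3 and SYNGR1, vesicle membrane proteins of the synaptogyrin family, rose by 1.81 ± 0.147 (adjusted p = 1.07e-04) and 1.79 ± 0.213 (adjusted p = 6.01e-04). SV2A, a vesicle glycoprotein, rose by 1.47 ± 0.414 (adjusted p = 0.0296), with 2.05 ± 0.324 in BRCA1-null cells (adjusted p = 0.00699) and 0.88 ± 0.746 in BRCA1+ cells (adjusted p = 0.493). SCAMP5, a secretory carrier membrane protein, rose by 1.07 ± 0.102 (adjusted p = 2.22e-04).

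Of 12 tested cytoskeleton and axon genes, 6 rose and 1 fell. KIF5C, a neuronal kinesin heavy chain, rose by 2.80 ± 0.16 (adjusted p = 3.00e-05), from 2.00 and 2.16 to 16.6 and 16.8 CPM in BRCA1+ and from 0.901 and 0.865 to 6.40 and 4.21 CPM in BRCA1-null cells. CNTN1, an axonal adhesion molecule, rose by 1.35 ± 0.18 (adjusted p = 0.00102), NEFM, a neurofilament subunit, by 0.74 ± 0.166 (adjusted p = 0.0112) and MAP2, a dendritic microtubule protein, by 0.69 ± 0.124 (adjusted p = 0.00392). INA, the neurofilament protein alpha-internexin, has a site with all 14 letters inside the gene and changed by -0.03 ± 0.0739 (adjusted p = 0.827).

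Receptor and channel genes were mostly too low, with 9 of 17 tested, 3 higher and 0 lower, and a median log2 fold change of -0.32. SCN2A, a neuronal sodium channel, had 0 counts in both BRCA1+ control libraries and 3 and 12 in BRCA1+ entinostat. The entinostat mean of 0.177 CPM was 2.52 times the mean floor of 3 counts per control library (0.0702 CPM). The entinostat library with 3 counts lies at the floor itself, so this ratio rests on the library with 12 counts and is not a lower bound. In BRCA1-null cells SCN2A had 6 and 12 counts in control and 14 and 22 in entinostat. CHRM4, a muscarinic acetylcholine receptor, had 5 to 10 counts in the control and 19 to 33 in the entinostat libraries and rose by 1.95 ± 0.292 (adjusted p = 0.00182). SCN2A and CHRM4 entered the test only through their entinostat libraries, and with the filter on the controls alone 1 of 7 genes of this list rose. That gene was GRIN1, an NMDA receptor subunit, at 1.07 ± 0.24 (adjusted p = 0.011). GRIN1 overlaps LRRC26 on the opposite strand, which had 49 to 156 counts beside 48 to 388 for GRIN1.

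Of 5 tested RNA-binding and transcription factor genes 2 rose, CELF5 by 1.49 ± 0.317 (adjusted p = 0.0086) and ELAVL2 by 0.84 ± 0.174 (adjusted p = 0.00818). CALB1, which encodes the calcium-binding protein calbindin and stood at 216 to 363 CPM, fell by 0.24 ± 0.0401 (adjusted p = 0.00316). The 5 tested secretory granule genes had adjusted p of 0.168 to 0.71. In single lines 16 of the 47 genes rose in BRCA1+ cells (34%), beside 8.13% of all genes. Without 1 library that count was 6 to 15, with 10 and 7 without BRCA1+ control replicates 1 and 2 and 8 and 6 without BRCA1+ entinostat replicates 1 and 2. In BRCA1-null cells 12 of the 47 rose (25.5%), beside 7.57% of all genes. Without 1 library that count was 5 to 12, with 5 without BRCA1-null control replicate 2 and 6 without BRCA1-null entinostat replicate 1, and it was 7 with only the groups compared.

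Some of these genes carry RE1-like letters near the start, and those of 3 genes that rose are shown because their values are given above. KIF5C, SYNGR3, SYNGR1, SV2A, CNTN1 and CHRM4 also rose. They held no match with at most 1 differing letter within the gene and 5 kb on either side. GRIN1 and SCN2A held all 14 letters, and SCAMP5 differed by C1T:
GRIN1 chr9:140033712-140033732 plus strand: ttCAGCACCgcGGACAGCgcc
SCN2A chr2:166094994-166095014 plus strand: ctCAGCACCatGGACAGCgtt
SCAMP5 chr15:75287727-75287747 plus strand: actAGCACCtcGGACAGCtcc
They lay at 112, -908 and -140 bases from the transcription start. Of the genes with at most 1 differing letter within 1 kb of the start, 114 were tested and 21 rose (18.4%), close to the 15.2% of all genes. Of those with all 14 letters, 21 were tested, 8 rose (38.1%) and 1 fell, which was CALB1. SCN2A, among these 8, did not pass the filter on the 4 control libraries alone. Its place among them is thus not independent of its rise. XKR7, among the risers of the 114 genes, did not pass that filter either. The averaged call of SNAP25, also among the 8, was lost in 10 of 17 alternatives. DESeq2 called 6 of the 21 genes higher and the likelihood ratio test 8. In single lines the counts by the edgeR quasi-likelihood test were lower. Of the 21 genes with all letters 5 rose in the BRCA1+ line (23.8%), with 3 by DESeq2 and 8 by the likelihood ratio test. In the BRCA1-null line 0 rose by the edgeR quasi-likelihood test, where 7 were higher at an unadjusted p under 0.05. There DESeq2 called 1 higher and the likelihood ratio test 2. Of the 114 genes 10.5% rose in BRCA1+ and 4.39% in BRCA1-null cells, beside 8.13% and 7.57% of all genes. Among the 10 genes CHGA, with all letters 432 bases after the start, did not pass.

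**Figure D4:**
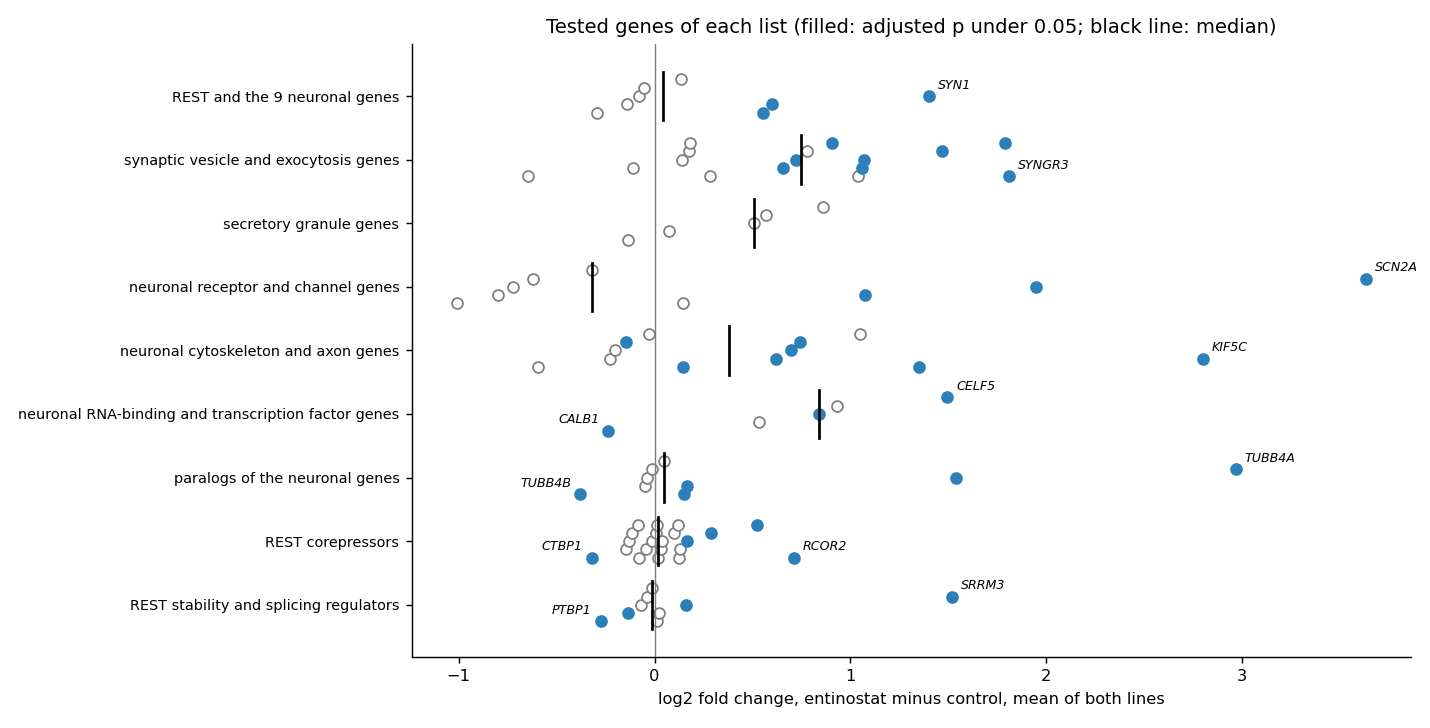
Log2 fold change with entinostat, averaged over the lines, for each tested gene of the lists. Dots are genes, filled where the adjusted p is under 0.05, and black lines are medians. Most filled dots of the synaptic vesicle and cytoskeleton lists lie right of 0, with SCN2A (fitted from 0 counts in BRCA1+ control), TUBB4A and KIF5C farthest out.

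Of 8 neuronal and neuroendocrine lineage markers 2 were tested, and DLX2 was called with entinostat. The summed level of the 8 neuronal and neuroendocrine markers was 2.44 to 2.95 CPM in BRCA1+ control and 4.16 to 4.54 in BRCA1+ entinostat, and 3.71 to 4.47 in BRCA1-null control and 5.12 to 6.68 in BRCA1-null entinostat cells. DLX2, a forebrain transcription factor gene, made up most of that sum, with 1.79 and 2.53 CPM in control and 3.32 and 3.66 in entinostat libraries of the BRCA1+ line and 2.99 and 3.68 and then 4.50 and 5.20 CPM in the BRCA1-null line. It was higher in entinostat averaged over the lines (0.62, adjusted p = 0.0137), with adjusted p of 0.0724 and 0.0952 in BRCA1+ and BRCA1-null cells alone. Their part in the changes of the neuronal genes was not tested. The 8 epithelial markers summed to 13580 to 15460 CPM in control and 15120 to 17740 CPM in entinostat libraries. KRT8, KRT18 and KRT7 made up most of that sum. With entinostat averaged over the lines 2 of the 8 were called higher (25%) and 0 lower, beside 15.2% and 10.9% of all tested genes.

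Of 22 corepressor genes that act with REST, 21 were tested, with 4 higher (19%) and 1 lower (4.76%) in entinostat averaged over the lines, beside 15.2% and 10.9% of all tested genes. The untested gene, EHMT2, had 0 counts throughout. Its entry lies on an alternative haplotype contig, so this does not show that EHMT2 is not expressed. RCOR2, a CoREST paralog, rose by 0.71 ± 0.0999 (adjusted p = 0.00129) and PHF21A, a reader of unmethylated histone H3, by 0.52 ± 0.0659 (adjusted p = 7.80e-04). HDAC1 rose by 0.29 ± 0.0393 (adjusted p = 0.00113) and CTBP1 fell by 0.32 ± 0.0404 (adjusted p = 7.93e-04), and the latter overlaps CTBP1-AS on the opposite strand. KDM1A changed by 0.13 ± 0.056 (adjusted p = 0.118), RCOR1 by 0.04 ± 0.0611 (adjusted p = 0.706) and HDAC2 by 0.02 ± 0.0405 (adjusted p = 0.801).

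Between the lines, at nearly equal REST, 5 of the 21 corepressors were higher (23.8%) and 8 lower (38.1%) in BRCA1-null control cells, beside 21.1% and 21% of all tested genes. RCOR2 stood at 2.63 and 2.16 CPM in BRCA1+ control and at 8.66 and 9.40 in BRCA1-null control cells (1.93 ± 0.144, adjusted p = 1.45e-05). ZMYM2, a zinc finger partner of the complex, was higher by 0.77 ± 0.0989 (adjusted p = 2.90e-04). RCOR3 (-0.79 ± 0.116), HDAC3 (-0.69 ± 0.0589), CDYL (-0.58 ± 0.0586) and HDAC1 (-0.51 ± 0.0557) were lower, with adjusted p = 6.16e-04, 2.92e-05, 7.36e-05 and 1.18e-04.

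Of 9 genes that control REST's stability or splicing, 2 rose and 2 fell with entinostat (22.2% each), beside 15.2% and 10.9% of all tested genes. With the filter on the 4 control libraries alone, 8 were tested, of which 1 rose (12.5%) and 1 fell, beside 15.2% of all genes higher. SRRM3, a splicing factor related to SRRM4, rose by 1.52 ± 0.39 (adjusted p = 0.0199), from 4 to 7 counts in control to 6 to 28 in entinostat libraries, through which alone it entered the test, while SRRM4 changed by -0.01 ± 0.326 (adjusted p = 0.982) at 13 to 27 counts. FBXW11, a paralog of BTRC, rose by 0.16 ± 0.0428 (adjusted p = 0.0227), PTBP1, a repressor of neuronal exons, fell by 0.27 ± 0.04 (adjusted p = 0.00154), and CUL1, the ligase scaffold, fell by 0.13 ± 0.0426 (adjusted p = 0.0456).

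BTRC changed by 0.02 ± 0.067 (adjusted p = 0.842). FBXW11 and SKP1 were lower in BRCA1-null control cells, by -0.60 ± 0.0607 (adjusted p = 7.19e-05) and -0.71 ± 0.0568 (adjusted p = 2.01e-05). Both lie on chromosome 5, as does HDAC3. Of the 822 tested genes of that chromosome 465 were lower and 86 higher, beside 21% and 21.1% of all tested genes. The median of the chromosome 5 genes was -0.48. The part of the chromosome in these differences was not tested.

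**Figure D5:**
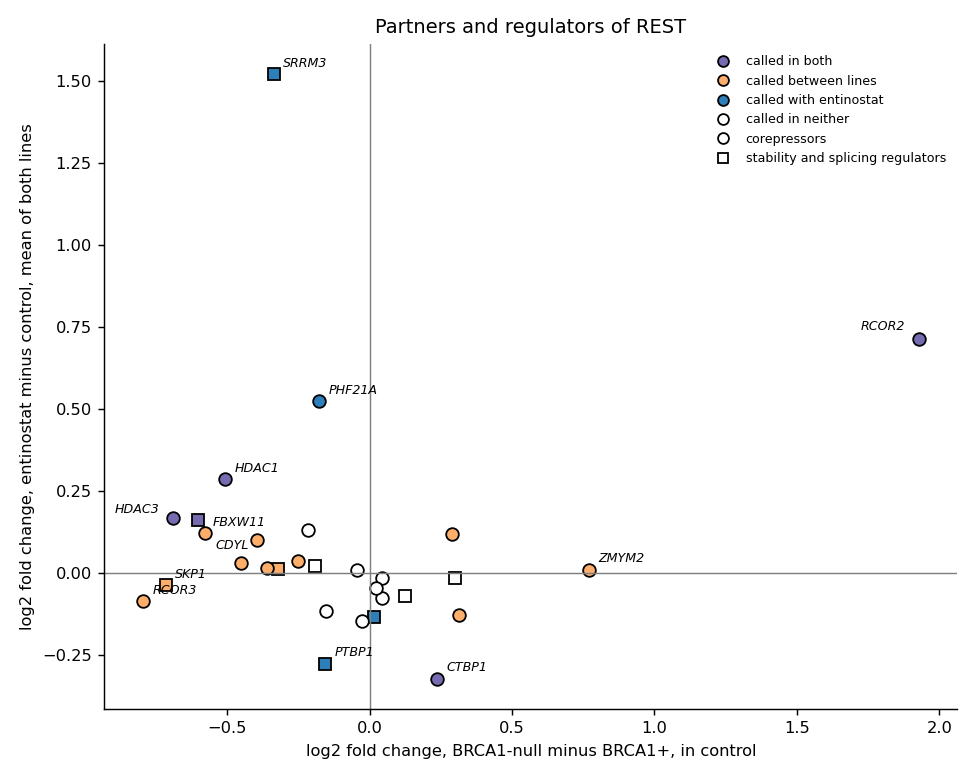
Log2 fold change between the lines in control (horizontal) against that with entinostat averaged over the lines (vertical), for 21 corepressors (circles) and 9 regulators (squares) of REST. Colours mark which comparison called a gene. The control libraries enter both axes, so no relation between them is read. RCOR2 is higher in BRCA1-null cells and with entinostat, and most others lie near 0 on the vertical axis.

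The genes whose log2 CPM moved most like REST over the 8 libraries, among 10404 genes whose mean log2 CPM reached 3, were PAM16 (Pearson's r = 0.963), SCXB (0.93), CHID1 (0.925), EEF1B2 (0.916) and COA6 (0.902). REST itself varied 1.13-fold, so these values rest on small differences and are a description.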

How the data were processed

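Raw counts per gene symbol were deposited by the authors, whose alignment used TopHat 2 on hg19 and whose counting used NGSUtils. How strand and reads with several positions were treated is not given in the sources used here. Groups and replicate numbers came from the sample titles, and all 8 libraries were used. An entry without a gene name held 0 counts and was left out. The values of 1 lineage marker are not reported here.

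Counts were tested with edgeR 4.0.16 in R 4.3.3 (filterByExpr, 17714 genes kept, TMM factors, quasi-likelihood fit with 1 mean per group, 4 residual degrees of freedom, two-sided, Benjamini-Hochberg adjusted p under 0.05). CPM used TMM-scaled totals, and RPKM divided it by the gene length of the deposited table. Folds against 0 counts used a floor of 3 counts per library. RE1-like letters were sought in the GRCh37 genome with GENCODE v44lift37 places. The fit and the letter search were tested on simulated data. The genes and lists were chosen with earlier results of these data known. Named genes were the 10 genes, all paralogs, the 4 largest called changes of each other list, and corepressors or regulators called with a log2 fold change of 0.5 or more in size, with INA, KDM1A, RCOR1, HDAC2, BTRC and SRRM4 added after their values were seen. Alternatives were other size factors, filters, DESeq2 1.42.0, other edgeR tests, a replicate block, fits on the groups compared, a fold threshold, the omission of each library and, chosen after seeing the data, a filter on the 4 control libraries alone.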

Additional observations from a re-analysis of the deposited data

Results flagged for a closer look

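TUBB3, the neuronal beta-tubulin, is named here for the way its libraries lay in the 2 lines. Both BRCA1+ entinostat libraries lay above both BRCA1+ controls, and both BRCA1-null entinostat libraries lay below both BRCA1-null controls. This pattern was the rule for naming TUBB3, and its share over all genes was not counted, so it is a description. The change in BRCA1-null cells passed (-0.39, adjusted p = 0.0284) and that in BRCA1+ cells did not (0.11 ± 0.0928, adjusted p = 0.49). The test of the difference between the lines gave a log2 value of -0.504 (edgeR quasi-likelihood test, unadjusted p = 0.00365, Benjamini-Hochberg adjusted p = 0.967), so it did not pass over all genes. Of 17714 tested genes, 827 had an unadjusted p under 0.05 in that test.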

How the results depend on the processing

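Counts of called genes among the 8 tested were small and moved with the settings. In BRCA1+ cells 2 became 1 with no filter, with at least 50 counts per library of a group, with the DESeq2 Wald test and with the legacy edgeR estimate. In BRCA1-null cells 3 became 1 when only the groups compared were fitted, and between the lines in entinostat 2 became 1 with DESeq2. An added absolute log2 fold change of at least 1 left 1 gene in each of these comparisons, in the averaged comparison and between the lines in control. With 1 library omitted the counts ranged from 1 to 2 (BRCA1+), 1 to 3 (BRCA1-null), 2 to 3 (averaged), 1 to 2 (lines in control), 1 to 2 (lines in entinostat) and 0 to 0 (interaction). The averaged call of L1CAM held in every alternative without the fold threshold. That of SYN1 held in every alternative that tested it, and the filter of at least 50 counts left it untested. The cause of the other changes was not tested.

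Signs turned only for values that were not called. CHGA between the lines in control was 0.0423 with upper-quartile factors, 0.0123 with DESeq2, 0.00811 with the likelihood ratio test, 0.0103 with the legacy estimate, 0.00135 with the replicate block, 0.00144 with only the groups compared and 0.00246 with the filter on the 4 control libraries alone. With 1 library omitted, log2 fold changes with entinostat ranged in BRCA1+ cells from -0.26 to 1.03 for SYP and -0.18 to 0.0364 for STMN3. In BRCA1-null cells they ranged from -0.26 to 0.21 for SYP, -0.0102 to 0.83 for SNAP25 and -0.13 to 0.0603 for STMN3, and averaged from -0.14 to 0.51 for SYP. Between the lines in control they ranged from -0.81 to 0.0414 for SNAP25, -0.27 to 0.28 for CHGA and -0.0142 to 0.10 for L1CAM, and in entinostat from -0.57 to 0.0792 for SYN1, -0.46 to 0.0278 for CHGA and -0.0858 to 0.0297 for L1CAM. Interactions ranged from -0.00116 to 0.10 for REST, -1.06 to 0.24 for SYP, -0.10 to 0.69 for SYN1, -0.82 to 0.0161 for SNAP25, -0.0745 to 0.15 for STMN3 and -0.47 to 0.0801 for CHGA.

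Same-numbered libraries of different groups deviated together with correlations of 0.0523 to 0.287. The highest were between control and entinostat of the same line, at 0.287 in BRCA1+ and 0.2 in BRCA1-null cells. Not all correlations were over 0.1, so the main fit did not take the numbers as pairs. A pairing within a line is not excluded by this. The replicate block, run as an alternative, gave both lines the same replicate effect. It does not model a pairing within each line, and no fit with an effect per line was run. With the replicate block, SNAP25 in BRCA1+ cells (0.83, adjusted p = 0.0225) and TUBB3 averaged (-0.14, adjusted p = 0.0411) were called, and over all genes 4314 and 3640 were called with entinostat in BRCA1+ and BRCA1-null cells, in place of 2503 and 1906. Over all genes the calls with entinostat were 676 to 2413 (BRCA1+), 512 to 1597 (BRCA1-null) and 3057 to 4007 (averaged) with 1 library omitted, 693 in BRCA1-null cells with only the groups compared, and 516, 532 and 683 with the fold threshold, which left 2204 and 1864 between the lines. CHGA, SYP, SYN1 and SNAP25 rest on 14 to 130 counts per library, and the counts limit what their tests can show.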

Other observations

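Other genes with RE1-like letters (at most 1 of 14 differing) within 1 kb of the start also rose with entinostat, chosen here after their values were seen. SYT5, a synaptotagmin of vesicle release, went from a mean of 0.205 to 0.764 CPM over 4 control and 4 entinostat libraries (log2 fold change 2.52 ± 0.343, adjusted p = 8.80e-04). PHYHIPL went from 1.17 to 3.51 CPM (1.55 ± 0.299, adjusted p = 0.00571), HCN3, a pacemaker channel, from 3.34 to 6.06 CPM (0.86 ± 0.194, adjusted p = 0.0115) and HTR1D, a serotonin receptor, from 2.66 to 4.13 CPM (0.80 ± 0.126, adjusted p = 0.00225). HCFC1, a widely expressed transcriptional cofactor, fell from 157 to 101 CPM (-0.64 ± 0.0546, adjusted p = 1.25e-04). The genes named here are a selection and not the largest changes in order. XKR7 and FBLL1 rose by more than HCN3 and HTR1D, and IFIT5, MAPK11, RNF11, RECQL and ABCA7 were also called higher. Of the 114 tested genes with such letters, 21 rose (18.4%) and 7 fell (6.14%). The shares of all tested genes were close for rises, at 15.2%, and 10.9% for falls.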
